A study of Mus musculus with 46 samples.

Results

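Histone H3.3 occupancy was compared between SSEA-1-positive cells sorted on day 12 and on day 16 of reprogramming, written D12S+ and D16S+. These are 2 of the 46 samples of the series, chosen by their labels, and they hold 45850 and 33972 H3.3 peaks. The cells were mouse embryonic fibroblasts carrying an IRES-EGFP cassette downstream of the Oct4 (Pou5f1) gene, infected with pMXs retroviruses for Oct4, Sox2, Klf4 and c-Myc and kept in a feeder-free medium with LIF, bFGF, CHIR99021 and ascorbic acid. SSEA-1 is a surface carbohydrate used to sort cells that move towards pluripotency, and its positive fraction is still a mixture of cells. Both groups share the virus, the medium and the reporter, and they differ in the day of the sort. The other H3.3 libraries served as references: the fibroblasts before induction (D0), cells on day 3, Thy1-negative and Thy1-positive cells on days 6 and 9 (D6T-, D9T-, D6T+, D9T+), SSEA-1-negative cells on days 12 and 16 (D12S-, D16S-), the iPSCs, and ESD3 embryonic stem cells.

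H3.3 is the histone H3 variant that is placed into chromatin outside replication. The Hira complex places it at active promoters, enhancers and gene bodies, and Atrx with Daxx places it at telomeres, heterochromatin and endogenous retroelements. It is therefore found both at genes in use and at silenced repeats, and a peak alone does not say which.

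Each group was 1 library, so no comparison between the days could be tested and no spread between replicates exists. Intervals are 95% intervals (Wilson for shares, exact binomial for ratios) and cover counting error only, since reads copied by PCR are not independent molecules. D12S+ had 22.5 M tags with 6.93% of them in peaks, and D16S+ had 18.7 M with 4.88%. A peak score is the normalized tag count, in tags per 10 M. The tag threshold of the peak caller was 6.66 in D12S+ and 6.93 in D16S+ on this scale, and the lowest scores in the lists were 5.11 and 5.33. A site without a peak did not pass the calling limits, which is not a count of 0. Because the D16S+ list was the shorter one, each count was repeated with the 33972 highest-scoring peaks of every H3.3 list, called the equal number. The reference lists, such as those of the iPSCs and D0, were thus cut as well. Whether a higher value means more cells with H3.3 at a site or more H3.3 per cell cannot be told apart.

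The days were compared at sequences that recur in the genome. The 6 words of 31 bases that recurred most often in the 4000 highest intergenic peaks of the iPSC library were taken, so neither D12S+ nor D16S+ chose them. All 3 with fewer than 10000 copies in the genome, a limit set after their values were seen, and 1 of the 3 abundant ones are shown, since results for the rarer and the abundant words are given apart. Each line gives 200 bases of a D16S+ peak, with the word in capitals, 5′ to 3′ on the minus strand of build NCBIM37 (mm9). Word 1 is shown at chr5:110365522-110365721 in an intron, word 3 at chr3:121452119-121452318 between genes, and word 4 at chr2:120639824-120640023 in an intron. The last line shows word 5, an abundant word, at chr17:29181026-29181225 near the end of a gene.
word 1: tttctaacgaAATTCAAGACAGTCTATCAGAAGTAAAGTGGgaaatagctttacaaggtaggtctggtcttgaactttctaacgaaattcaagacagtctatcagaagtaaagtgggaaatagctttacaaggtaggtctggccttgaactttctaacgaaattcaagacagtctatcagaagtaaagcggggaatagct
word 3: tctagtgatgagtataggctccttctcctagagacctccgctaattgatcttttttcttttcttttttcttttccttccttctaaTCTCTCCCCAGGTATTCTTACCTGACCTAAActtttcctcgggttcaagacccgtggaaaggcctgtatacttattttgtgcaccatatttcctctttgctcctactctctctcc
word 4: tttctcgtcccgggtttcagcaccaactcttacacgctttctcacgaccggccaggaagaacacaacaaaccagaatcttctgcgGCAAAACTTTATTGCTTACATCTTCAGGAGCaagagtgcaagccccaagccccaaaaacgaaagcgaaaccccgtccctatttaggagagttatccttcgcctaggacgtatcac
word 5: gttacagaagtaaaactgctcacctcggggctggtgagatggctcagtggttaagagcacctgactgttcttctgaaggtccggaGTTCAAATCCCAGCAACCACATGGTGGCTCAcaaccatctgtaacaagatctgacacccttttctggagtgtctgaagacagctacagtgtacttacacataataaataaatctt
All of these peaks also had a D12S+ peak and an iPSC peak over them. The D16S+ peak scores were 114 for word 1, 89.4 for word 3, 69.3 for word 4 and 296 for word 5. Their fold over input was 4.55, 6.31, 3.7 and 3.71. All D16S+ peaks at these words had median scores of 18.9, 22.9, 15.2 and 16.0, so the peaks shown are not typical. No repeat annotation was used here, so the words are not assigned to a repeat family.

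Word 1 had 2892 copies in the genome, 81.7% of them intergenic. Its copies lay in H3.3 peaks in 0% of cases in D0, 7.37% in D12S+ (6.47 to 8.37), 27.2% in D16S+ (25.7 to 28.9), 60.1% in the iPSCs and 26.7% in ESD3 cells. The counts were 213 copies in D12S+ and 788 in D16S+, with 169 in both, 619 in D16S+ alone and 44 in D12S+ alone. Word 3, with 1170 copies, lay in peaks in 3.25% of cases in D12S+ (2.38 to 4.43) and 20.7% in D16S+ (18.5 to 23.1), against 53.1% in the iPSCs. Word 4, with 2336 copies, lay in peaks in 11% of cases in D12S+ (9.76 to 12.3) and 21.4% in D16S+ (19.7 to 23.1), against 56.0% in the iPSCs. Thus all 3 rarer words were in peaks more often on day 16 than on day 12, outside the counting intervals, although the D16S+ list was shorter. With an equal number of peaks the D12S+ shares were 6.26%, 2.99% and 9.12%.

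The SSEA-1-negative cells of the same days had almost no copies of words 1, 3 and 4 in peaks. In those cells, word 1 lay in a peak at 1 copy on each day, word 3 at 0 copies on each day, and word 4 at 14 copies on day 12 and 7 copies on day 16. A count of 0 of 1170 copies allows a share of up to 0.256%. In every other library before the iPSC stage, no more than 0.471% of the copies of any of the 3 words lay in a peak. The D12S+ words of 263 and 339 copies differed, with 31.6% and 33.9% in D9T- and 24.7% and 31.9% in D12S-. Of the D16S+ copies in peaks, 98.7% of word 1, 96.7% of word 3 and 97.4% of word 4 were also in iPSC peaks, but the iPSC list chose the words, so this is a description. Copies within 10000 bases were then merged, since copies under the same peak are not separate events. Word 1 went from 171 to 575 of 2252 such loci, word 3 from 38 to 241 of 1143, and word 4 from 234 to 436 of 1454. The median fold over input of the peaks at word 1 was 4.30 in D12S+ and 4.85 in D16S+, close to that of all peaks (4.24 and 4.41). Reads that matched several places had been removed upstream, so a copy can only be seen where its surroundings are unique.

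**Figure D1:**
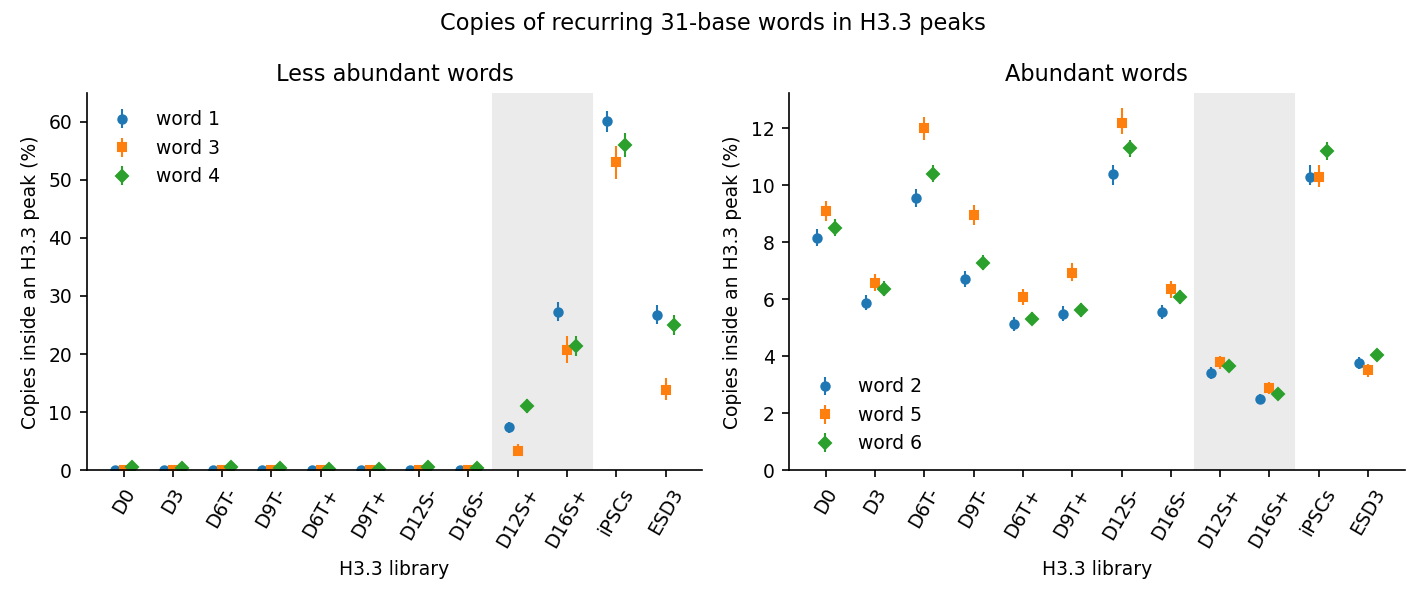
Percent of the genomic copies of each recurring 31-base word that lay in an H3.3 peak, by library, for the 3 rarer words (1, 3 and 4) and the 3 abundant words (2, 5 and 6). Bars through the points are 95% Wilson intervals for counting error. The rarer words lay near 0 in the fibroblasts and the SSEA-1-negative cells and were higher in D16S+ than in D12S+, whereas the abundant words were lower in D16S+.

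The abundant words lay in peaks less often on day 16, when the share of the genome in peaks was also smaller (1.14% against 1.78% on day 12). Word 2, with 30730 copies, went from 3.41% in D12S+ to 2.49% in D16S+, word 5, with 24965 copies, from 3.78% to 2.88%, and word 6, with 35958 copies, from 3.65% to 2.68%. Their levels in D0 were 8.15%, 9.10% and 8.51%. Measured over peaks, 387 D12S+ peaks (0.844%) and 919 D16S+ peaks (2.71%) held a rarer word, while 5.91% and 5.97% held an abundant one. A rarer word was present in 435 of the 7305 intergenic peaks gained on day 16 (5.95%, 5.43 to 6.52) and in 63 of the 8982 intergenic peaks lost (0.701%, 0.549 to 0.896).

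A count free of any chosen word gave the same order. Of the 4000 highest intergenic peaks of each kind, 27% of those gained (25.6 to 28.4) had at least 25% of their 31-base words in another window of the set, against 8.90% of windows 5000 bases to the side. In peaks lost on day 16 the share was 4.53% (3.92 to 5.21), with 3.70% beside them. The peaks present on both days had 18.3% in the D12S+ list and 23.6% in the D16S+ list. In introns the gained peaks had 3.98%, so the repeated sequence was mainly intergenic.

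Over all peaks, 14865 D12S+ peaks (32.4%, 32.0 to 32.9) were overlapped by a D16S+ peak and 30985 (67.6%) were lost. Of the D16S+ peaks, 15759 (46.4%, 45.9 to 46.9) were already in D12S+ and 18213 (53.6%) were gained. With the equal number, 60.7% of the D12S+ peaks were lost and 57.8% of the D16S+ peaks were gained. The lists shared 12.6 Mb, a Jaccard index of 0.202, and the index was 0.213 with the equal number. Both lists thus exchanged more than they kept, and with lists of equal length the shares lost and gained were close.

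What was exchanged were the short, weak peaks. With all peaks, lost and gained peaks both had a median score of 8 and a median length of 500 bases, and with the equal number the lost peaks had 9.55 and 658 bases. Kept peaks had a median score of 16.4 in D12S+ and 13.1 in D16S+. Of the peaks of at least 5 kb in D12S+, 473 were kept and 6 lost, and 0 of that length were gained. By score, the share of D12S+ peaks found again went from 84.6% in the highest 10% of the list to 11.8% in the lowest 10%, and the share of D16S+ peaks already present from 93.1% to 21.9%. Between the same ends of the lists the median length went from 2681 to 500 bases in D12S+ and from 2149 to 500 in D16S+. An overlap needed only 1 base, which a longer peak meets more easily, and the part of length in these shares was not tested. A peak close to the calling limit can be missed in either library, and how many of the exchanged peaks that concerns was not tested.

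**Figure D2:**
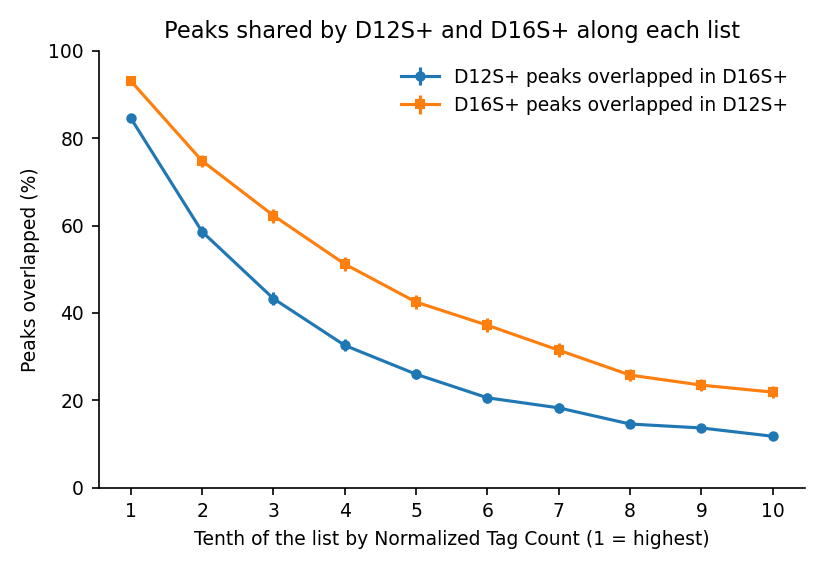
Percent of peaks overlapped by a peak of the other day, in steps of 10% of the list ranked by normalized tag count, for D12S+ and D16S+. The highest 10% was found again in 84.6% and 93.1% of cases, and the lowest in 11.8% and 21.9%.

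Lost and gained peaks differed in where else they were found. Of the lost peaks, 45% overlapped a D0 peak, 66.6% a D12S- peak and 45.6% a D16S- peak. Of the gained peaks, these shares were 28.6%, 41.6% and 27.5%. The iPSC list held 55.2% of the gained peaks (54.4 to 55.9) and 45.8% of the lost peaks (45.3 to 46.4), and ESD3 cells held 28.8% and 25.7%. With the equal number, in which the iPSC list was cut as well, the iPSC shares were 41.0% and 35.8%. Gained peaks were thus more often iPSC peaks and less often fibroblast peaks than lost ones. Of the gained peaks, 8742 (48.0%) had no peak in the libraries of D0, D3, D6T- and D9T-, and 4787 (26.3%) of the gained peaks had none there and a peak in the iPSCs. By place, 40.1% of gained and 29.0% of lost peaks were intergenic, 42.4% and 50.1% lay in introns, and 8.05% and 8.36% at promoters. H3K4me3, a mark of active promoters, lay over 18% of lost and 15.3% of gained peaks in the D12S+ list, and over 7.38% and 10.9% in the shorter D16S+ list.

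**Figure D3:**
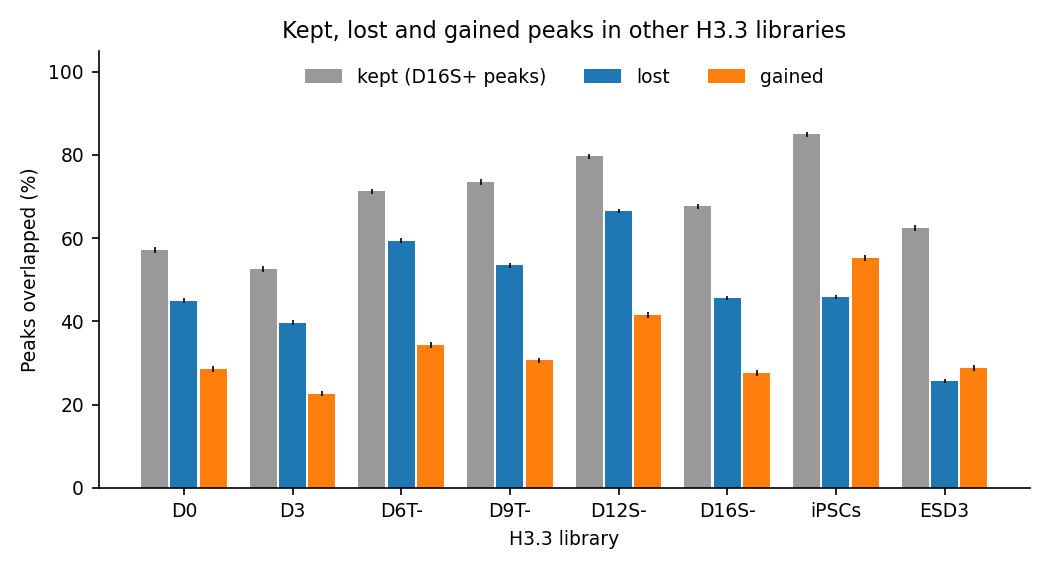
Percent of kept, lost and gained H3.3 peaks overlapped by a peak of each other H3.3 library, with 95% Wilson intervals. Gained peaks overlapped the iPSC list more often (55.2%) than lost peaks (45.8%), and the D0 list less often (28.6% against 45%).

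Single sites near the input limit needed care. The highest gained peak, chr2:181651685-181653856, had a score of 289.1 at 2.25-fold over input, and the highest lost peak, chr17:39984764-39985969, had 490.7 at 2.37-fold. Both lay near the 2-fold limit, where a small shift in the input changes the call. The X chromosome held 290 peaks in D12S+ (0.632%) and 387 in D16S+ (1.14%), and its summed score was higher on day 16 (log2 ratio 0.51), while the autosomes ranged from -0.79 to -0.28. The Y chromosome had only 2 and 6 peaks (log2 ratio 0.97). In the other H3.3 libraries the X share ran from 0.488% to 1.26%, so both values lay inside that range.

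Windows of 1 Mb showed where the summed score differed most. The window at 146 to 147 Mb of chromosome 4, which holds the zinc finger gene Zfp600, went from 538 to 1094 tags per 10 M, with 119.6 in D0 and 5737 in the iPSCs. The window at 66 to 67 Mb of chromosome 13 went from 75.8 to 416, with 2272 in the iPSCs and 0 in D16S-. The window of Nanog, Dppa3 and Gdf3 on chromosome 6 went from 1371 to 1587. The largest decreases included the window of Ezh2 on chromosome 6, from 2740.2 to 658, and a gene-dense window of chromosome 11, from 3619 to 2143.

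A gene was called bound when peaks covered at least 250 bases of it or of the 1000 bases on either side, and its value is the summed score of those peaks. Of 22225 genes, 11020 were bound in D12S+ and 9486 in D16S+, with 8247 in both. Thus 1239 genes (5.57% of all genes) were gained and 2773 (12.5%) lost, and with the equal number 1792 (8.06%) and 2105 (9.47%). Of the D12S+ genes, 74.8% stayed bound. Among genes bound on both days the median log2 ratio of D16S+ over D12S+ was -0.55, with 555 genes (6.73%) at least 2-fold higher and 2660 (32.3%) at or below 0.5 of the D12S+ value. The median covered length went from 2.32 to 1.40 kb, so a ratio of a gene list has to be read against -0.55 and not against 0.

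Gained genes rested on little: 81.0% had 1 peak and their median value was 8.27. Of them, 78.0% were also bound in the iPSCs and 68.6% in D0. Of the lost genes 83.0% were bound in D0, 80.6% in the iPSCs and 80.3% in D16S-, and 65.0% were bound in each of D0, D3, D6T- and D9T-. Of genes bound on both days 93.1% were bound in D0, 97.5% in the iPSCs and 94.2% in D16S-. For genes bound on neither day these shares were 28.1%, 22.7% and 17.1%. Most lost genes thus carried H3.3 in other cell states too, but less often than the genes kept. Gained genes were bound in D0 and the iPSCs less often than lost genes. Of the gained genes, 180 (14.5%) were bound in none of those earlier libraries, and 118 of these were bound in the iPSCs.

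The factors of naive pluripotency had the highest median ratio of the gene lists. Of 19 genes, 13 were bound in D12S+ and 15 in D16S+, with 3 gained and 1 lost. Over all genes 5.57% were gained and 12.5% lost. Thus 12 of 13 stayed bound, beside 74.8% of all genes bound in D12S+. Of the 12 bound on both days, 9 were higher in D16S+ (median log2 ratio 0.73). The next highest median of the lists, 0.62, was that of the neural markers, with 5 genes bound on both days. Esrrb, an orphan nuclear receptor of the naive network, went from 68.5 to 182 (log2 ratio 1.41, 1.14 to 1.70) and was at 557 in the iPSCs. Nanog, the homeodomain factor of the pluripotent state, was at 0 in D0, 8.65 in D9T-, 102 in D12S+, 144 in D16S+ (log2 ratio 0.50, 0.24 to 0.76), 131 in the iPSCs, 37.3 in D12S- and 7.32 in D16S-. The D16S+ value of Nanog was thus close to that of the iPSCs, and each SSEA-1-positive value lay above that of the negative cells of its day. Zfp42 (Rex1), a marker of naive cells, had no peak in D12S+, 11.7 in D16S+ and 81.2 in the iPSCs. The germ cell and naive regulator Prdm14 was gained with 6.29, from 1 peak. The X-linked Zfx was gained with 14.1, but had 49.2 in D0, 129.9 in D12S- and 71.2 in D16S-.

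Members of this list did not move together. Klf2 went from 11.5 to 37.5, Tbx3 from 21.5 to 59.3, Nr5a2 from 17.1 to 34.1 and Rif1 from 16.9 to 57.9. Tbx3 had 81.2 in D0 and 85.4 in D12S-, and Rif1 had 7.98 and 69.4. In contrast, Klf5 went from 31.8 to 6.40, Stat3, the transducer of LIF, from 108 to 32.0, and Klf4 was lost with 52.2 in D12S+. Tfcp2l1 (Tcfcp2l1 in the annotation) had 39.7 and 47.4, with an interval of the log2 ratio that spanned 0 (-0.18 to 0.70). Pou5f1 went from 848 to 1647, but Pou5f1, Sox2 and Klf4 also came into these cells as retroviral cDNA, and the top D16S+ peak of Pou5f1, chr17:35637730-35647849, had a score of 2841 at only 2.26-fold over input. How much of the signal at these genes came from the provirus was not tested.

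Among 30 later pluripotency genes 27 were bound on each day, with 2 gained and 2 lost and a median log2 ratio of -0.05. Thus 25 of 27 stayed bound, beside 74.8% of all genes bound in D12S+. Dppa2, a chromatin factor of pluripotent and germ cells, went from 7.11 to 49.6 (log2 ratio 2.80, 2.03 to 3.67), and its partner Dppa4 had no peak on either day and 71.6 in the iPSCs. Dnmt3l, a cofactor of de novo methylation, went from 16.2 to 37.3 and Alpl, alkaline phosphatase, from 14.2 to 38.9. Spp1 (28.6) was gained, though it had 98.4 in D0, and Lin28b (16.6) and Lefty2 (13.6) were lost. Tdgf1, the Nodal co-receptor, had 99.9 and 113, while Sall4 went from 120.4 to 52.9 (log2 ratio -1.19, -1.54 to -0.85). Dppa3 had no peak on day 12 and 1.38 on day 16, too little covered to be called bound, and 38.4 in the iPSCs. Of 14 formative and primed factors, 8 and 10 were bound, and all 8 stayed bound, beside 74.8% of all genes bound in D12S+. Both gained genes, Dnmt3b (15.7) and Otx2 (7.20), are known for the step after the naive state. Dnmt3b had 14.8 in D0 and 10.6 in D9T-, and Otx2 had no peak in either.

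The collagens had the lowest median ratio of the gene lists. Of 22 collagen genes, all 22 were bound in D0, 11 in D12S+, 5 in D16S+, 10 in the iPSCs and 18 in D16S-. Thus 6 were lost and 0 gained, and 5 of 11 stayed bound, beside 74.8% of all genes bound in D12S+. The median log2 ratio of the 5 kept collagens was -2.08. The summed score of the list went from 228 in D12S+ to 64.2 in D16S+, with 544 in the iPSCs. Col1a1 and Col1a2, the chains of type I collagen, were lost with only 7.33 and 6.22 in D12S+, against 406 and 647 in D0. Col3a1 was lost with 10.9 against 486. The lost collagens thus had scores near the lowest ones called already on day 12, and with the equal number 4 and not 6 were lost. Col4a1 went from 32.6 to 7.74 and Col4a2, its basement membrane partner, from 49.8 to 6.33, whereas Col23a1 had 13.6 and 16.5.

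Of 40 other matrix and contractile genes 23 and 20 were bound, with 2 gained, 5 lost and a median log2 ratio of -1.05. Over all genes 5.57% were gained and 12.5% lost, so these counts were near the shares of all genes. Thus 18 of 23 stayed bound, beside 74.8% of all genes bound in D12S+. The summed score of the list went from 1172 in D12S+ to 464 in D16S+, with 1267 in the iPSCs. Fn1 (fibronectin) went from 211 to 51.5 (log2 ratio -2.03, -2.36 to -1.71), with 272 in the iPSCs. Vim (vimentin) went from 127 to 33.2 and the collagen receptor Ddr2 from 64.5 to 8.0. Cd44, the hyaluronan receptor, was lost with 62.4 in D12S+, against 1391 in D0 and 804 in D16S-, and Fbn1 (fibrillin 1) with 51.1 against 2143 in D0. Ctgf, a target of TGF-beta and of the Hippo pathway, ran the other way, from 6.89 to 32.5. With the equal number 6 of these genes were gained and 5 lost, so the direction of the count rested on the longer D12S+ list. Thy1, the fibroblast surface marker used in the earlier sorts, had no peak on either day.

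Of 29 mesenchymal transcription factors 13 and 9 were bound, with 1 gained and 5 lost. Thus 8 of 13 stayed bound, beside 74.8% of all genes bound in D12S+. Their median log2 ratio was -1.60, with none at least 2-fold higher. Zeb2, a repressor of E-cadherin, was lost with 42.4, Prrx2 with 42.2, and Runx2, the osteoblast regulator, with 28.6 against 1032 in D0. Tcf4 went from 124 to 9.60, Snai1 from 46.4 to 15.2 and Nfic from 254 to 54.6. Twist1 had no peak on either day, and Nr2f2 was gained with 8.27. E-cadherin itself, Cdh1, went from 211 to 276 (log2 ratio 0.39, 0.21 to 0.57) towards 675 in the iPSCs. Of the 35 epithelial genes of its list 30 and 29 were bound, and 28 of 30 stayed bound. Of 13 AP-1 genes 12 and 10 were bound, with a median log2 ratio of -0.43, beside -0.55 for all genes. Thus 10 of 12 stayed bound, beside 74.8% of all genes bound in D12S+. Of the 10 kept genes 9 were lower on day 16, but 6 lay above the median of all genes. Fosl1 was lost with 47.2, Fosl2 went from 66.2 to 20.5 and Mafk from 54.4 to 15.2, while Atf3 was the 1 kept gene that was higher, from 7.33 to 23.7.

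**Figure D4:**
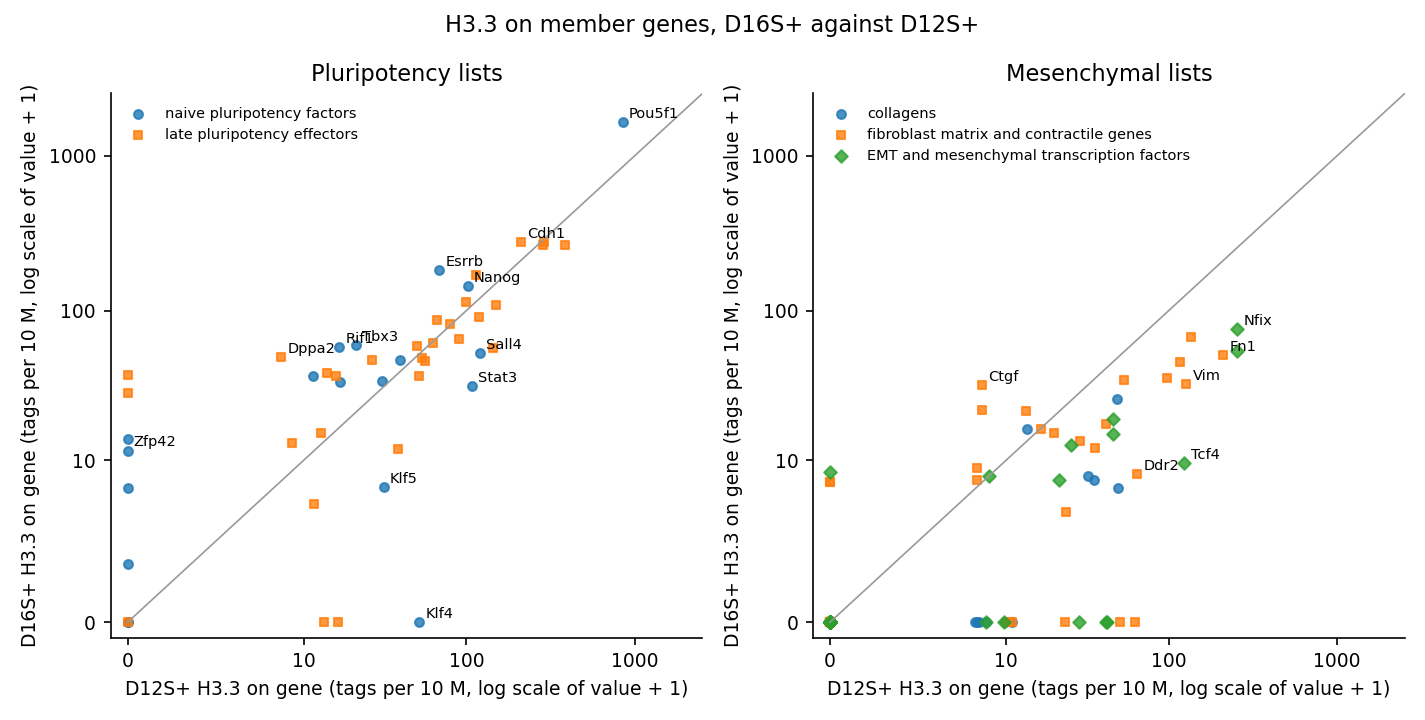
Summed H3.3 score of each gene of the pluripotency lists (left) and the mesenchymal lists (right) in D12S+ (x axis) and in D16S+ (y axis), in tags per 10 M on a log scale of the value plus 1, with the diagonal for equal values. Esrrb and Dppa2 lie above the diagonal, and Fn1, Vim and Tcf4 below it.

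Of 12 genes for H3.3 and its handling 11 were bound in D12S+ and 8 in D16S+, with 4 lost and 1 gained. Thus 7 of 11 stayed bound, beside 74.8% of all genes bound in D12S+, and the median log2 ratio was -0.89, beside -0.55 for all genes. Hira, the subunit that names the deposition complex, was lost with 36.3 in D12S+ although it stood at 117 in the iPSCs, and its partner Ubn1 was lost with 27.3, while Ubn2 was gained with 20.5. Of the H3.3 genes themselves, H3f3a went from 133 to 55.2 (log2 ratio -1.27) and H3f3b had 50.8 and 63.7, with an interval that spanned 0. Atrx went from 23.8 to 12.8, and Daxx had 77.5 and 74.6.

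Of the genes that silence retroelements none was lost. Of 22 genes 20 were bound in D12S+ and 22 in D16S+, with a median log2 ratio of -0.29, beside -0.55 for all genes. All 20 stayed bound, beside 74.8% of all genes bound in D12S+. Smarcad1, a remodeller, went from 36.6 to 170.4 (log2 ratio 2.22, 1.87 to 2.59) and was at 450.4 in the iPSCs. Zfp809, a zinc finger protein that directs silencing to proviruses, went from 19.9 to 52.8 (log2 ratio 1.41, 0.88 to 1.94). Trim28, the corepressor that zinc finger proteins recruit, had 153 and 149.9, and the methyltransferase Setdb1 went from 95.4 to 56.5. Suv39h1 (7.20) and Chaf1b (17.3), a subunit of the chromatin assembly factor for replication, were gained. Values at Rcor1 (83.1 and 7.47) and Ehmt1 (80.1 and 27.7) were lower on day 16.

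For DNA methylation and the TET enzymes 15 and 13 of 18 genes were bound. Thus 12 of 15 stayed bound, beside 74.8% of all genes bound in D12S+. Tet1 went from 256 to 369 (log2 ratio 0.52) and Tet3 from 76.3 to 10.9 (log2 ratio -2.81), so these dioxygenases ran in opposite directions. Tdg, the glycosylase that removes their products, was lost with 23.3. Among 30 germline genes 8 and 11 were bound, with Dmrt1 (7.74), Sycp1 (6.93), Stag3 (7.74) and Tex19.1 (9.60) gained and Tdrd7 (8.22) lost. Of the 8, 7 stayed bound. Over all genes 5.57% were gained and 12.5% lost. Stk31 went from 9.11 to 36.5 and Tcfap2c from 7.11 to 25.1.

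Lists of genes used in every cell had ratios nearer 0. All 51 ribosomal protein genes were bound on both days (median log2 ratio -0.04), as were 34 and 33 of 36 housekeeping genes (-0.16). Polycomb genes had 24 of 30 bound on each day, Wnt genes 23 of 41, and TGF-beta genes 27 of 33 with a median of -1.06. LIF and FGF genes had 23 and 22 of 30, with Lifr gained (9.07) and its partner receptor Il6st lost (14.6). Fut9, which makes the SSEA-1 epitope, was gained with 13.6. Of 34 cell cycle genes 31 and 29 were bound, and of 20 senescence and p53 genes 20 and 17, with Cdkn2b lost (29.7). Genes that stayed bound were 27 of 31 and 17 of 20 in these lists. For Polycomb they were 21 of 24, for Wnt 19 of 23, for TGF-beta 25 of 27 and for LIF and FGF 20 of 23. The share of all genes bound in D12S+ that stayed bound was 74.8%. Of the Wnt genes, the co-receptors Lrp5 (48.4) and Lrp6 (66.0), the receptor Fzd3 (7.11) and the inhibitor Dkk2 (21.3) were lost, and the ligand Wnt11 (10.1), the receptors Fzd2 (12.4) and Fzd8 (15.2) and the signal transducer Dvl1 (6.67) were gained.

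Short panels of defining cell type markers were then read. Of 7 pluripotency markers 5 and 6 were bound, with a summed value of 430.5 in D12S+ and 551 in D16S+, against 25.1 in D0 and 1290.4 in the iPSCs. Of 7 fibroblast markers 4 and 2 were bound, summing to 250.4 and 64.3 against 4036 in D0. The iPSCs had 308 and ESD3 cells 115, both above D16S+. To these sums Fn1 gave 211 in D12S+, 51.5 in D16S+ and 272 in the iPSCs. H3.3 at fibroblast genes thus lay far below D0 on both days, and what share of it came from cells still fibroblastic in the SSEA-1-positive gate was not tested. The panel of 5 trophoblast markers summed to 7.11 and 7.47, that of 3 neural markers to 22.0 and 41.0 (Pax6) and that of 5 primitive endoderm markers to 0 and 6.67 (Gata6), and the panel of 4 blood markers had no peak on either day.

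Outside the lists, the gained genes with the highest D16S+ values were Zfp600 (chr4:146124225-146166156) with 94.9 at 2.03-fold over input, Lrrc2 (chr9:110854049-110886570), which lies beside Tdgf1, from 2.23 to 85.1, Adarb2 with 62.2, Prex2 with 53.6 and Slc15a2 with 51.2. Zfp600 was at 575 in the iPSCs and had no peak in D0. The lost genes with the highest D12S+ values were Emp1 (chr6:135312949-135333191) with 206, Farp2 with 96.7, Mboat2 with 89.1, Pcsk4 with 87.0 and Mad1l1 with 84.6. Emp1, an epithelial membrane protein, had 374 in D0 and 414 in D16S-. Of genes bound on both days the highest ratios were at Csrp2bp, from 6.44 to 63.9 (log2 ratio 3.31, 2.56 to 4.28), Fem1b, Aplp1, Mypn and Gpsm2 (2.94 to 3.17), and all 5 counted as gained with the equal number. The lowest were at Fbxw11, from 144 to 7.47 (log2 ratio -4.27, -5.16 to -3.51), Crkl, Baiap2, Sox13 and Pik3c2b (-4.09 to -3.98).

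Short motifs were searched on both strands in the central 500 bases of intronic and intergenic peaks and in windows 5000 bases to the side that held no peak. The 10 motifs were TGANTCA (AP-1), ATGCAAAT (octamer), ACAATGG (Sox), TCAAGGTCA (Esrrb), GGGNGTGG (Klf), ACATTCC (Tead), TGTGGTT (Runx), CCGGAAGT (Ets), TGACGTCA (CRE) and CACGTG (E-box), none of which contains another. The CRE letters were in 1.11% of gained peaks (0.956 to 1.29) against 0.432% beside them, and in 0.502% of lost peaks (0.421 to 0.598) against 0.328%. The octamer was in 4.89% of kept D12S+ peaks (4.50 to 5.31) against 2.93% beside them, in 3.45% of lost peaks against 2.73%, and in 3.69% of gained peaks against 3.20%. AP-1 letters were in 16.3% of lost and 15.9% of gained peaks against 14.3% beside both, so they did not separate the sets. A match is a description of letters and not a bound site.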

How the data were processed

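H3.3 ChIP-Seq peak lists were read for 12 libraries, with H3K4me3 and H3K36me3 lists as references. The authors mapped reads with STAR to mm9, removed reads with more than 2 mismatches or several matches, and called peaks with HOMER for each library against input (versions are not given in the sources used here). H3.3 peaks needed a 2-fold ratio over input and other marks a 4-fold ratio, at a Poisson p-value of 0.0001. The deposited signal is the normalized tag count, per the file headers scaled to 10 M tags. The deposited fold over input is a ratio, and the deposited p-value was read only as the authors' filter.

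From these lists, peaks were joined by an overlap of at least 1 base, placed by midpoint on GENCODE genes of the same build, and summed over each gene in proportion to the part of a peak inside it. In 18 of 30 lists values were used and 12 lists were not used. Peaks outside the assembled nuclear chromosomes were left out, 72 in D12S+ and 90 in D16S+. Recurring words of 31 bases were counted on both strands of the genome after setting aside words with fewer than 14 distinct 3-base words. Overlaps, shared bases, gene values and the bound call were tested on simulated data. Python 3.11.15, numpy 2.4.6, pandas 2.3.3 and scipy 1.17.1 were used.

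The genes named were the 5 gained and 5 lost genes with the highest value, the 5 highest and 5 lowest ratios among genes bound on both days with at least 20 tags per 10 M in one, up to 6 gained or lost members of each list, and a fixed set (Nanog, Esrrb, Zfp42, Tfcp2l1, Dppa3, Tdgf1, Sall4, Cdh1, Col1a1, Col1a2, Thy1, Fut9, Twist1, Zeb2). Other list members were named after their values were seen, and some members are not reported here. The members and lists were chosen with earlier results of these data known, and the words and motifs after the files had been read. The alternatives were an equal number of peaks, a ranking by tags per kb, a 4-fold limit, a 0.5 overlap, a common score floor and autosomes alone.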

Additional observations from a re-analysis of the deposited data

Results flagged for a closer look

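Bound counts of several gene lists, and a recurring word, went opposite ways in SSEA-1-positive and SSEA-1-negative cells from day 12 to day 16. With 1 library a group the difference between the fractions was not tested in any of them. Over all genes the bound count went from 11020 to 9486 in the positive cells. Bound germline genes went from 8 to 11 in the positive cells, a change of 3, and from 12 to 6 in the negative cells. The trophoblast, primitive endoderm and blood lists here are longer ones, of 15, 16 and 17 genes, than the short panels of defining markers given above. Bound genes of the trophoblast list went from 5 to 8, a change of 3, and from 9 to 6 in the negative cells. Bound retroelement silencing genes went from 20 to 22, a change of 2, and from 22 to 21 in the negative cells. Bound genes of the primitive endoderm list went from 5 to 6 and of the blood list from 4 to 5, a change of 1 each, while the negative cells went from 8 to 7 and from 8 to 6. The summed scores of the trophoblast, primitive endoderm, blood and retroelement lists were lower on day 16 in both fractions. In the positive cells they went from 309.7 to 244, 455 to 374, 65.9 to 60.7 and 1721 to 1495. The germline sum went from 446 to 476 in the positive and from 1069.8 to 750.3 in the negative cells. With the equal number the negative cells had 6 bound germline genes on each day. Word 4 went from 11% to 21.4% of its copies, 10.4 percentage points, and from 0.599% to 0.300% in the negative cells. The negative libraries also held more peaks on day 12 (87427) than on day 16 (65376), and the part of this in their lower counts was not tested.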

How the results depend on the processing

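With the equal number, the kept share of D12S+ peaks was 39.3% in place of 32.4%, that of D16S+ peaks 42.2% in place of 46.4%, the iPSC shares of gained and lost peaks 41.0% and 35.8%, and the D0 share of lost peaks 35.1%. Ranked by tags per kb these were 36.4%, 39.2%, 35.1%, 24.4% and 25.7%, with 1892 genes gained and an intergenic difference between gained and lost peaks of 9.64 percentage points in place of 11.1. At 4-fold over input they were 17.4%, 22.7%, 12.0%, 8.01% and 28.7%, with a Jaccard index of 0.0903 and an intergenic difference of 8.99. With a 0.5 overlap they were 18.8%, 34.0%, 50.1%, 40.3% and 38.4%. With a common floor of 9.34 tags per 10 M, chosen as the higher median score, they were 39.5%, 52.6%, 77.4%, 65.4% and 59.1%, with an intergenic difference of 16.9. The change in bound naive factors, 2, was 1 at 4-fold, 1 on autosomes and 0 with the floor. The change in fibroblast matrix genes, -3, was 1 with the equal number and 0 ranked by tags per kb, so its direction reversed. The day 16 minus day 12 difference in word copies was 16.0 for word 1 and 14.3 for word 3 at 4-fold (19.9 and 17.4 as reported). With copies merged, an alternative chosen after seeing the data, it was 17.9 for word 1 and 13.9 for word 4 (10.4 as reported). The iPSC and D0 lists were cut by the same rule with the equal number, by tags per kb and at 4-fold. They were left whole with the common floor. At 4-fold, 22.6% of the iPSC peaks passed. In all of the settings above, gained peaks kept a higher iPSC share than lost peaks. The number of genes lost stayed within 1.5 times the reported count. The cause of the other differences was not tested. No paired analysis was possible because each group had 1 library. Depth and the share of tags in peaks differed between the libraries, and they cannot be told apart from the day.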
